A study of Mus musculus with 12 samples.

Results

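Oligodendrocytes wrap axons of the central nervous system in myelin, a compacted membrane built from a few abundant proteins and from galactolipids. They arise from precursor cells that persist in the adult brain, and a small set of transcription factors drives the passage from precursor to myelinating cell. In the hypothalamus both stages are present beside the neurons that control feeding and reproduction. The genes described here are 33 markers of this lineage out of 16640 genes measured in the arcuate nucleus (ARC), a nucleus of the mediobasal hypothalamus, of female mice. They were taken by symbol, and all 33 were found and all 33 passed the filter on low values. By role, 13 are genes of the mature myelin sheath, 3 mark precursors, 5 encode transcription factors of the lineage and 12 are further genes that oligodendrocytes express strongly.

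Bulk RNA-seq of microdissected ARC gave 12 libraries in 4 groups. Control chow (n = 3) and control HFD (n = 2) carried loxP-flanked Esr1 (Esr1fl/fl), and mutant chow (n = 4) and mutant HFD (n = 3) also carried Cre recombinase under Nkx2-1 (Esr1Nkx2-1Cre). All mice were 27 weeks old, and HFD, a high-fat diet, was fed for 17 weeks. Esr1 encodes oestrogen receptor alpha, and Cre removes it from cells with a history of Nkx2-1 expression, so the deletion is not limited to one neuron type. The comparisons ask how the genotype and the diet, alone and together, changed expression in the ARC. The 4 contrasts between groups share samples with each other, and they are not independent.

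The deposited value is an abundance signal whose columns each sum to between 922172 and 1254999. Its scaling between libraries and its adjustment for transcript length were not stated, and read depth is unknown, so orders of level between genes are given only as deposited. Between 201 and 1768 genes were listed at 0 in a library. The third mutant chow library had the most, 10.6% of genes against 1.21 to 6.12% elsewhere. It also had the lowest median Spearman correlation with the other libraries, 0.908 against 0.933 to 0.959. Esr1 was 17.8, 7.29 and 19.8 in control chow and 6.05, 3.15, 1.93 and 1.65 in mutant chow. In the libraries labelled control HFD it was 15.3 and 22.4, and in those labelled mutant HFD 10.7, 16.6 and 11.9, so the libraries labelled mutant HFD lay near the controls and did not show the low Esr1 of mutant chow. The genotype of these 3 libraries is therefore in doubt, and so are the directions of the 3 comparisons that use them, by genotype on HFD, by diet in mutants and the interaction. Of the 12 libraries 2 others stood apart in markers of neighbouring tissue. The first control HFD library had a Ttr signal of 2112, against 0 to 19.2 in the other libraries. Ttr and 4 further choroid plexus markers summed to 2185 there and to between 28.1 and 75.2 elsewhere. The same library had the lowest Agrp (65.9) and Npy (227) of the 12, both markers of arcuate neurons. The second control chow library had a pituitary and pars tuberalis sum over 3 markers of 5479, against 104 to 1899 elsewhere, and the highest column sum. Of this sum, Cga, the gene for the shared subunit of pituitary glycoprotein hormones, gave 4802. For the first control HFD library, medians over the members and differences of named members are given with and without it. For the second control chow library, medians and counts over the members and the difference of Trf on chow are. Differences of genes outside the members are given with all libraries only. Without the second control chow library 0 of 33 members passed the adjusted threshold in any contrast by limma, and the median log2 difference of the members was 0.55 by genotype on chow, 0.33 by diet in controls and -0.78 in the interaction, against 0.53, 0.26 and -0.70 with it. The members at an unadjusted p under 0.05 then numbered 1 (4.1% of all genes), 1 (2.95%) and 3 (3.13%).

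The lineage was readily detected in every library. Mbp, which encodes myelin basic protein, was the highest of the 33 members, with a signal of 634 to 3342 and a median of 1154. Plekhb1 (358 to 651), Qdpr (171 to 437) and Mobp (119 to 663), the last encoding a second basic protein of compact myelin, followed by median. The lowest was Cspg4, the gene for the NG2 proteoglycan of precursors, at 4.28 to 8.07. Markers of Schwann cells, the myelinating cells of peripheral nerve, were low, as in Prx, a gene of peripheral myelin, which was at most 2.23.

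Within the 13 mature myelin genes the other levels were as follows. Cnp, the gene for a phosphodiesterase of uncompacted myelin, ranged over 129.8 to 357, and Mag, the gene for the adhesion protein at the axon face, over 49.2 to 211. Cldn11, which encodes the tight junction protein between myelin layers, ranged over 36.03 to 168. Mal, a proteolipid of the sheath, ranged over 32.5 to 137, and Mog, which encodes a glycoprotein of its outer surface, over 18.9 to 88.7. Opalin and Ermn, genes of late oligodendrocytes, ranged over 5.49 to 26.8 and 4.88 to 25.4. Ugt8a and Fa2h, which encode enzymes of galactolipid synthesis, ranged over 6.46 to 25.8 and 9.39 to 36.1 and Aspa, the gene for aspartoacylase, over 3.75 to 24.8. Gjb1, the gene for the gap junction protein connexin 32, ranged over 2.95 to 18.4.

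The mature myelin genes differed widely between libraries of the same group. Mbp had signals of 634, 992 and 2228 in control chow, 1030.0, 2529.9, 1278 and 3342 in mutant chow, 1919 and 849 in control HFD and 1010.0, 932 and 1636 in mutant HFD. Mobp had signals of 119, 261 and 450.1 in control chow, 218, 616, 237 and 663 in mutant chow, 342 and 195 in control HFD and 224, 188 and 343 in mutant HFD. In both genes the lowest library was the first control chow library and the highest the fourth mutant chow library, and the chow groups overlapped. Mog had signals of 18.9, 39.9 and 52.3 in control chow, 24.6, 88.7, 54.1 and 71.3 in mutant chow, 61.4 and 29.2 in control HFD and 34.02, 26.7 and 34.4 in mutant HFD. It too was lowest in the first control chow library, and it was highest in the second mutant chow library.

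Mal had signals of 32.5, 66.9 and 74.7 in control chow, 40.8, 137, 55.1 and 127 in mutant chow, 104 and 40.6 in control HFD and 63.4, 45.7 and 70.5 in mutant HFD. Opalin had signals of 5.49, 13.04 and 20.7 in control chow, 6.63, 26.8, 13.4 and 22.5 in mutant chow, 18.3 and 15.04 in control HFD and 11.1, 11.4 and 9.98 in mutant HFD. Mag had signals of 67.3, 71.1 and 120.3 in control chow, 49.2, 205, 137 and 211 in mutant chow, 193 and 113 in control HFD and 76.6, 83.2 and 87.3 in mutant HFD. Mal and Opalin were also lowest in the first control chow library and highest in the second mutant chow library, whereas Mag was lowest in the first mutant chow library. Of the 33 members, 17 had their lowest value in the first control chow library and 11 in the first mutant chow library, while 15 had their highest value in the second mutant chow library and 9 in the fourth.

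**Figure D1:**
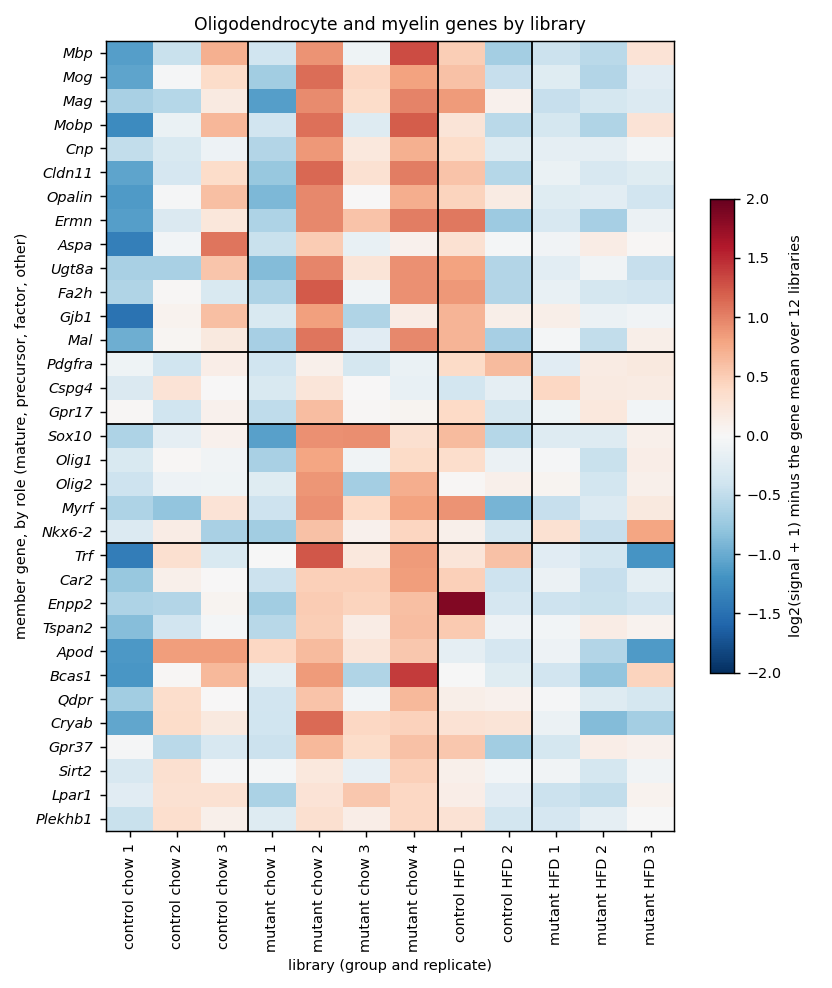
Each row is 1 of the 33 members, ordered by role, and each column is a library; the colour is log2(signal + 1) minus the mean of that gene over the 12 libraries. Columns 2 and 4 of mutant chow are red and column 1 of both chow groups is blue over most mature myelin rows, while the 3 precursor rows are pale.

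The mean of log2(signal + 1) over the 13 mature myelin genes summarised this spread. It was 4.62, 5.40 and 6.005 in control chow, 4.97, 6.58, 5.67 and 6.44 in mutant chow, 6.22 and 5.24 in control HFD and 5.40, 5.28 and 5.49 in mutant HFD. The range within control chow was 1.39 log2 units, or 2.62-fold, and within mutant chow 1.61, or 3.05-fold. Within mutant HFD it was 0.21, or 1.16-fold, and the 3 mutant HFD libraries lay inside the range of both chow groups. As group mean ± SD, the mature myelin level was 5.34 ± 0.70 in control chow, 5.91 ± 0.75 in mutant chow, 5.73 ± 0.69 in control HFD and 5.39 ± 0.11 in mutant HFD, so every difference between group means was smaller than the range within the chow groups. In bulk tissue, fewer oligodendrocytes and less RNA per oligodendrocyte cannot be told apart.

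The 13 mature myelin genes moved largely together from library to library. With group means removed, Pearson's r across the 12 libraries over the 78 pairs of mature myelin genes had a median of 0.85 and ranged from 0.45 to 0.98. Each gene was also set against the mean of the mature genes, its own value left out. The closest were Cldn11 (r = 0.99), Mog (0.97), Mal (0.95), Opalin (0.93) and Ermn (0.93), and the least close of the 13 were Gjb1 (0.80) and Aspa (0.77). Outside the mature list Tspan2, a tetraspanin gene, was closest (0.96), followed by Car2 (0.87), the gene for carbonic anhydrase 2. Libraries share tissue and scaling, so these values describe the 12 libraries and carry no test. For all 15801 genes tested the median r was 0.01. Over 24 other mature oligodendrocyte genes, not among the members, the median was 0.60 with a range of 0.01 to 0.92. Single genes of that list thus followed less closely than the 13, while the mean over the list had r = 0.95.

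**Figure D2:**
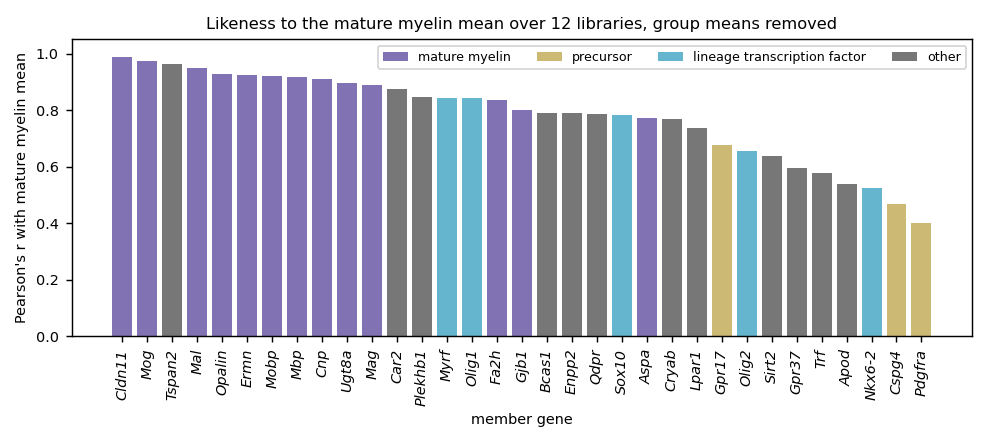
Bars give Pearson's r of each member with the mean of the mature myelin genes over 12 libraries, after group means were removed and with the gene itself left out of the mean; colours mark the roles. Cldn11 leads at 0.99 and the precursor genes Cspg4 and Pdgfra close the row at 0.47 and 0.40.

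Among 12113 genes outside the 33 with a mean signal of at least 5, those ranked most like the mature myelin mean included Tmem125 (r = 0.92, signal 2.08 to 11.4) and Tmem88b (r = 0.92, 9.91 to 38.2). Both belong to the 24 other mature oligodendrocyte genes. The others named by the same ranking are on none of the lists read here, which does not exclude expression in oligodendrocytes. They were Slc35c1 (0.94), Tesk1 (0.91), Slc12a2 (0.91), Sept4 (0.91), Trim59 (0.90), Hcn2 (0.89) and Tyro3 (0.89). Slc12a2 encodes a sodium-potassium-chloride cotransporter, Sept4 a septin and Tyro3 a receptor tyrosine kinase. The range of Hcn2, a channel gene, was 45.6 to 89.4.

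The sequence just before the start site was read for the members, as something the choice of genes did not use. RefSeq promoter windows on GRCm38.p6 were found for 22 of the 33, and 1 window a gene, the first in the order of the RefSeq table, was searched over the 250 bases before the start site on both strands. The core recognised by SOX factors, the family of the myelin regulator Sox10, written ACAAAG or ACAATG, was present in 6 of 11 mature myelin genes (54.5%), in 9 of 22 members (40.9%) and in 25.5% of all 27025 promoters. The E-box CAGCTG was in 1 of 22 members and 12.8% of all promoters, and TATAAA in 2 of 22 members and 13% of all; no search word overlaps another. A match describes letters in this window and is not a binding site. The promoters of 4 mature genes that varied together and the precursor gene Pdgfra, which followed them least, are shown 5′ to 3′ in the direction of transcription, with the SOX core on either strand in capitals. Mobp (chr9:120149492-120149706, plus strand), cut where the annotated gene begins, held 6 cores and Opalin (chr19:41077114-41077363, minus strand) held 1. Mog (chr17:37023399-37023648, minus strand), Mal (chr2:127656696-127656945, minus strand) and Pdgfra (chr5:75152001-75152250, plus strand) held 0. Of all 31 windows found for members, 25 had their start site in an annotated transcript of the gene. The windows searched for Pdgfra, Ugt8a and Gjb1 did not, and that of Gjb1 held a SOX core. The Pdgfra window ended at 75152250 and the annotated gene begins at 75152292.
Mobp: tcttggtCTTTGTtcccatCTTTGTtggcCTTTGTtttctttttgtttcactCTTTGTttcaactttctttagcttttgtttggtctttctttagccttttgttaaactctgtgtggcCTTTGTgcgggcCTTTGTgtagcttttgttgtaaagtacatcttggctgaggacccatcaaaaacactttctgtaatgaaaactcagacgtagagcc
Opalin: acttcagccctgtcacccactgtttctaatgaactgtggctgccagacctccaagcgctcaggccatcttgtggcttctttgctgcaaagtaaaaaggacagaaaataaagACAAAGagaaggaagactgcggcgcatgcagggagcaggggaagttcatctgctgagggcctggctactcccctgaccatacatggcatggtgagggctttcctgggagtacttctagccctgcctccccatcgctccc
Mog: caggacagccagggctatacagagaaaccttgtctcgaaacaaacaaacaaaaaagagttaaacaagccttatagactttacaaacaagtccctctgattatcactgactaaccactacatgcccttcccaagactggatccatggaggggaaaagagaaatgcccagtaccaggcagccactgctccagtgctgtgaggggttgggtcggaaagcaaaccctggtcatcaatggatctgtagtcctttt
Mal: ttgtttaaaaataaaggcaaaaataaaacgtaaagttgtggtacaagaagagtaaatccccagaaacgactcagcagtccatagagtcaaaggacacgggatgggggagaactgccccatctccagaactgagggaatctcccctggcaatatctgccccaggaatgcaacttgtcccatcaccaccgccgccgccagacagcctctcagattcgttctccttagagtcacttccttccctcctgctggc
Pdgfra: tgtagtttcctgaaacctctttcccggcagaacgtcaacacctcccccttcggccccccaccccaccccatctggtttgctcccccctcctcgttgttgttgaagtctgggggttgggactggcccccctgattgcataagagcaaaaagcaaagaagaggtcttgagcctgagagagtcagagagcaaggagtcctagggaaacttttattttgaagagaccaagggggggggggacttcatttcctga

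The 3 precursor genes varied over a narrower range than the mature genes. Pdgfra, which encodes the receptor for platelet-derived growth factor that keeps precursors dividing, had signals of 15.2, 12.2 and 18.04 in control chow, 12.1, 17.5, 12.5 and 14.8 in mutant chow, 21.5 and 25.8 in control HFD and 13.8, 18.4 and 18.9 in mutant HFD. Cspg4 had signals of 4.57, 7.31 and 5.90 in control chow, 4.55, 7.09, 5.91 and 5.17 in mutant chow, 4.28 and 5.02 in control HFD and 8.07, 6.76 and 6.68 in mutant HFD. Gpr17, a receptor gene of committed precursors, had signals of 18.9, 13.8 and 19.7 in control chow, 12.8, 29.1, 18.9 and 19.3 in mutant chow, 24.9 and 14.4 in control HFD and 17.4, 21.6 and 17.9 in mutant HFD. The highest value of each was 2.13, 1.89 and 2.28 times the lowest. In the mature genes this ratio ran from 2.75 for Cnp to 6.59 for Aspa, with 5.27 for Mbp. The residual SD within groups was 0.22 for Cspg4, 0.24 for Pdgfra and 0.37 for Gpr17 on the log2 scale. The median over the mature list was 0.68, and the median over all genes tested was 0.40. Over 9 other precursor genes, not among the members, the median was 0.43, so the narrow spread was that of these 3 genes and not of precursor genes in general.

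The precursor mean was 3.65 ± 0.13 in control chow, 3.66 ± 0.30 in mutant chow, 3.81 ± 0.07 in control HFD and 3.83 ± 0.08 in mutant HFD (log2 scale, mean ± SD). The difference of precursor minus mature mean was -1.01, -1.85 and -2.20 in control chow, -1.65, -2.53, -2.05 and -2.79 in mutant chow, -2.36 and -1.49 in control HFD and -1.64, -1.37 and -1.66 in mutant HFD. In mutant chow 3 libraries lay below all 3 of mutant HFD, and the first mutant chow library lay among them. Pdgfra followed the mature mean with r = 0.40, Cspg4 with 0.47 and Gpr17 with 0.68, while the mean of the 3 followed it with 0.75, and Pdgfra with Cspg4 had r = -0.005. Pdgfra is also a gene of fibroblasts and Cspg4 of pericytes. The summed signal of 4 fibroblast markers was 42.8 to 209 over the 12 libraries and that of 4 pericyte markers 42.9 to 87.4, and their part in these 2 genes was not tested.

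**Figure D3:**
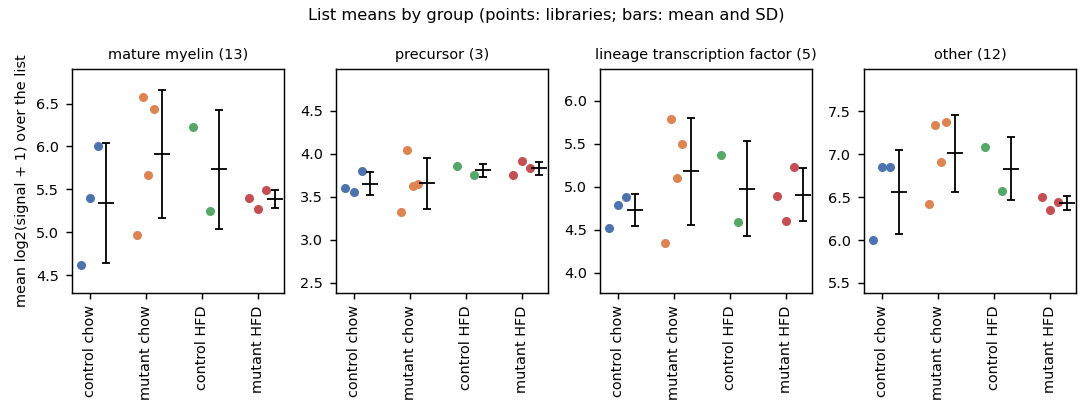
Points are libraries, and bars to their right the mean and SD of the group, of mean log2(signal + 1) over each list, with the number of genes in brackets; all panels span 2.6 log2 units. Mature myelin points spread over 1.96 log2 units and precursor points over 0.72.

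The 5 transcription factors followed the mature mean with a median r of 0.78, where the mature genes had 0.92 and the precursors 0.47. Sox10, needed for myelin gene expression, had signals of 15.1, 20.7 and 25.2 in control chow, 10.6, 45.4, 45.8 and 29.6 in mutant chow, 37.2 and 15.5 in control HFD and 19.5, 19.6 and 25.3 in mutant HFD. Olig2, which acts from the precursor stage on, had signals of 17.4, 21.9 and 21.97 in control chow, 19.7, 44.3, 14.2 and 39.5 in mutant chow, 23.9 and 25.3 in control HFD and 24.4, 17.9 and 25.2 in mutant HFD. Myrf, which switches on myelin genes in differentiating cells, had signals of 7.58, 6.62 and 14.9 in control chow, 8.80, 23.8, 16.2 and 21.9 in mutant chow, 23.5 and 5.91 in control HFD and 8.52, 9.85 and 14.04 in mutant HFD. In all 3 the second mutant chow library lay well above the first. Sox10 differed from the myelin genes in being highest in the third mutant chow library, which had the most genes at 0. Olig1 ranged over 76.6 to 209 and Nkx6-2, a homeobox gene of the lineage, over 18.2 to 52.9. Against the mature mean, r was 0.84 for Myrf, 0.84 for Olig1, 0.78 for Sox10, 0.66 for Olig2 and 0.53 for Nkx6-2.

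Mutant chow was compared with control chow to ask what the loss of Esr1 changed on the standard diet. Most members had a higher mean in mutant chow: the fitted log2 difference was above 0 in 31 of 33, with a median of 0.53, while over all 15801 genes it was above 0 in 52.2% with a median of 0.014. The differences of the mature genes ran from 0.12 (Aspa) to 0.87 (Ermn), all 13 above 0, and those of the precursors were -0.08 ± 0.23 for Pdgfra, -0.05 ± 0.26 for Cspg4 and 0.14 ± 0.28 for Gpr17 (± SE). The difference was 0.71 ± 0.49 for Mbp, 0.50 ± 0.45 for Sox10 and 0.80 ± 0.46 for Myrf.

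None of these passed the test. By limma with Benjamini-Hochberg adjustment over all genes, 0 of 33 members had an adjusted p under 0.05 on chow, where 0.019% of all genes did. At an unadjusted p under 0.05, 1 of 33 passed, where 4.34% of all genes did, and 0 of 33 had groups that did not overlap, where 4.51% of all genes had. The one was Trf (chr9:103204001-103230444, minus strand in GRCm38), the gene for the iron carrier transferrin, which oligodendrocytes make in the brain. Its signals were 59.5, 197 and 127 in control chow, 156, 375, 182 and 284 in mutant chow, 185 and 237 in control HFD and 135, 122 and 69.1 in mutant HFD. The chow groups overlapped in Trf, with the second control chow library above the first and the third of mutant chow. Its log2 difference on chow was 1.03 ± 0.40 (95% confidence interval 0.17 to 1.89, limma adjusted p = 0.982). It was 0.57 without the first control chow library, 0.80 without the second mutant chow library and 0.70 with the mature myelin mean as a covariate, none of them past the unadjusted threshold. Without the second control chow library, the highest of its group in Trf, the difference was 1.42. Because the members vary together, 1 library can move all of them. The median difference was 0.24 without the first control chow library, 0.31 without the second mutant chow library and 0.36 without the fourth, and it was 0.82 without the first mutant chow library, where 14 members had an unadjusted p under 0.05 against 4.66% of all genes, again with 0 past the adjusted threshold. Without the third control chow library 6 members did, against 4.77% of all genes.

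**Figure D4:**
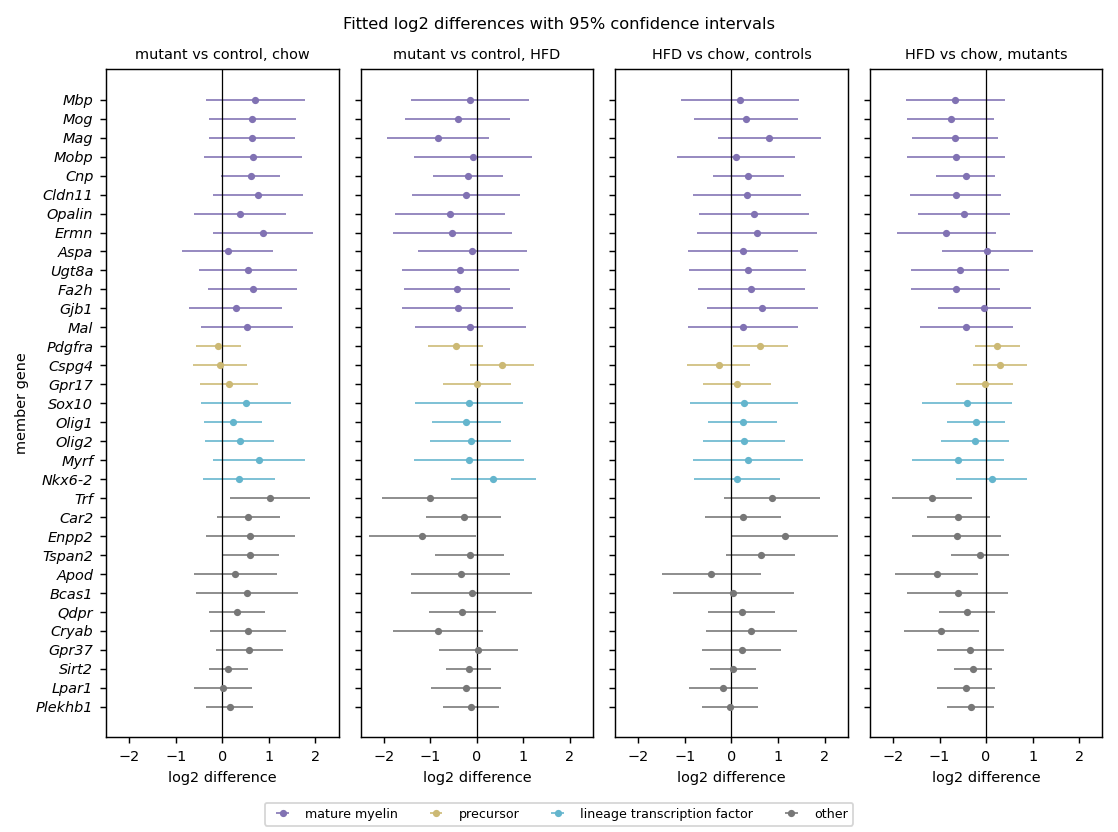
Points are fitted log2 differences of the 33 members and lines their 95% confidence intervals, for 4 contrasts; colours mark the roles. All intervals hold 0 apart from those of Trf on chow, Pdgfra and Enpp2 on HFD in controls, Enpp2 by genotype on HFD and Trf, Apod and Cryab on HFD in mutants.

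In mutants, HFD was compared with chow, to ask what the diet changed in the mutant genotype, which the Esr1 signals of the libraries labelled mutant HFD leave in doubt. Most members were lower on HFD: the difference was below 0 in 29 of 33 with a median of -0.44, against a median of -0.025 over all genes and 46.9% of them above 0. In the mature genes it ran from -0.85 (Ermn) to 0.03 (Aspa), and the mean signal on HFD was 58.3% of that on chow for Mbp and 53.1% for Mog. Pdgfra (0.24 ± 0.23) and Cspg4 (0.30 ± 0.26) had differences above 0. By limma with Benjamini-Hochberg adjustment 0 of 33 members passed, where 0.019% of all genes did. At an unadjusted p under 0.05, 3 of 33 did, all lower on HFD, where 5.37% of all genes did, and in 2 of 33 the groups did not overlap, where 7.99% of all genes had such groups.

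The 3 were Trf, Apod and Cryab. All 3 mutant HFD libraries lay below all 4 mutant chow libraries in Trf, with a log2 difference of -1.16 ± 0.40 (95% confidence interval -2.02 to -0.30, limma adjusted p = 0.821). Apod (chr16:31296192-31314808, minus strand), which encodes the lipid carrier apolipoprotein D, had signals of 94.6, 378 and 379.6 in control chow, 281, 329.8, 250.2 and 306 in mutant chow, 186 and 167 in control HFD and 198, 140.2 and 95.5 in mutant HFD. Its mutant groups did not overlap either, and the difference was -1.06 ± 0.41 (95% confidence interval -1.95 to -0.18, limma adjusted p = 0.854). The summed signal of 4 fibroblast markers was 80.5 to 116 in mutant chow and 55.2 to 80.4 in mutant HFD. Its part in the Apod difference was not tested. Cryab (chr9:50751325-50756636, plus strand), the gene for the small heat shock protein alpha B-crystallin, had signals of 52.1, 141 and 125 in control chow, 81.9, 241, 145 and 149.7 in mutant chow, 133 and 129.9 in control HFD and 99.7, 58.9 and 67.6 in mutant HFD. The first mutant chow library lay among the mutant HFD libraries in Cryab, and the difference was -0.96 ± 0.37 (limma adjusted p = 0.864). Exons of Cryab overlap those of Hspb2 on the opposite strand, and reads of the pair cannot be told apart if strand was not used.

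The differences of these 3 genes were smaller once the mature myelin mean was a covariate, an alternative added after the data were seen. They were -0.86 for Trf, still past the unadjusted threshold, and -0.78 for Apod and -0.59 for Cryab, no longer past it. Trf followed the mature mean less closely (r = 0.58) than most members, as did Apod (0.54). Without the third mutant HFD library, the lowest of its group in Trf and Apod, the values were -0.87 for Trf, -0.80 for Apod and -0.90 for Cryab, none of them past the unadjusted threshold. The median over the members was -0.28 without the second mutant chow library and -0.79 without the first, where 15 members had an unadjusted p under 0.05 against 5.85% of all genes. With array weights, which count variable libraries less, 13 did against 8.78%, and in both fits 0 passed the adjusted threshold.

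On HFD, the libraries labelled mutant were compared with controls, and in controls HFD was compared with chow. Both contrasts rest on 2 control HFD libraries that differ in nearly every mature gene. Against those 2, the difference of mutant HFD was below 0 in 30 of 33 members with a median of -0.23 (all genes -0.010, 48.4% above 0). Without the first control HFD library the median turned to 0.12 with 21 of 33 above 0, and without the second it was -0.59. In controls, HFD minus chow was above 0 in 29 of 33 with a median of 0.26 (all genes -0.007, 49% above 0). That median turned to -0.18 without the first control HFD library, was 0.68 without the second, 0.06 without the first control chow library and 0.47 without the third. The direction of both contrasts over the members therefore depended on the library with the choroid plexus markers.

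By limma with Benjamini-Hochberg adjustment 0 of 33 members passed in either contrast, where 0.00633% of all genes passed by genotype on HFD and 0% by diet in controls. At an unadjusted p under 0.05, 1 of 33 passed by genotype on HFD (all genes 2.21%) and 2 of 33 by diet in controls (all genes 3.54%). The groups did not overlap in 9 of 33 members by genotype on HFD (all genes 15.7%), namely Enpp2, Trf, Cryab, Pdgfra, Cspg4, Mag, Opalin, Qdpr and Sirt2, of which Cspg4 alone was higher in mutants. By diet in controls they did not overlap in 2 of 33, Pdgfra and Olig2 (all genes 14.1%).

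Enpp2 (chr15:54838901-54952892, minus strand), the gene for autotaxin, which oligodendrocytes and choroid plexus epithelium express, was the member past the unadjusted threshold by genotype on HFD. Its signals were 49.7, 50.97 and 79.9 in control chow, 47.1, 110.2, 105 and 117 in mutant chow, 281 and 60.7 in control HFD and 57.4, 56.5 and 58.9 in mutant HFD. The first control HFD library, at 281, stood far above the other 11, and it is the library with the high Ttr. The log2 difference was -1.17 ± 0.53 by genotype on HFD (limma adjusted p = 1) and 1.14 ± 0.53 by diet in controls (limma adjusted p = 0.998). Without that library they were -0.07 and 0.05, neither past the unadjusted threshold, and without the second control HFD library -2.27 and 2.24. Pdgfra (chr5:75152292-75198215, plus strand) was the other member past the unadjusted threshold by diet in controls. Both control HFD libraries lay above the 3 control chow libraries, with a difference of 0.62 ± 0.27 (95% confidence interval 0.04 to 1.20, limma adjusted p = 0.998). Without the first control HFD library it was 0.75 and without the second 0.49, neither past the unadjusted threshold.

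The genotype by diet interaction, the difference by labelled genotype on HFD minus that on chow, was below 0 in 32 of 33 members. Its median was -0.70, against -0.028 over all genes, 47.3% of which were above 0. By limma with Benjamini-Hochberg adjustment 0 of 33 passed, where 0% of all genes passed. At an unadjusted p under 0.05, 4 of 33 did, where 3.44% of all genes did. These were Trf (-2.03 ± 0.62), Enpp2 (-1.77 ± 0.69), Cryab (-1.39 ± 0.58) and Mag (chr7:30899176-30914873, minus strand, -1.48 ± 0.66), each with a limma adjusted p = 0.999. In Trf the mean was 128 ± 68.6 in control chow and 249 ± 101 in mutant chow, but 211 ± 36.9 in control HFD and 109 ± 34.9 in mutant HFD (SD). Mag had 86.2 ± 29.6 and 151 ± 75.6 on chow and 153 ± 56.7 and 82.3 ± 5.41 on HFD.

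Leaving out the first control HFD library gave an interaction of -2.21 in Trf, past the unadjusted threshold, and of -0.67 in Enpp2, -1.37 in Cryab and -1.10 in Mag, none of them past it. The median over the members was then -0.39. The median was -0.44 without the first control chow library and -1.11 without the second control HFD library. Without the first mutant chow library it was -1.002, with 12 members at an unadjusted p under 0.05 against 3.92% of all genes. Trf kept an unadjusted p under 0.05 in all 12 fits that left out 1 library.

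**Figure D5:**
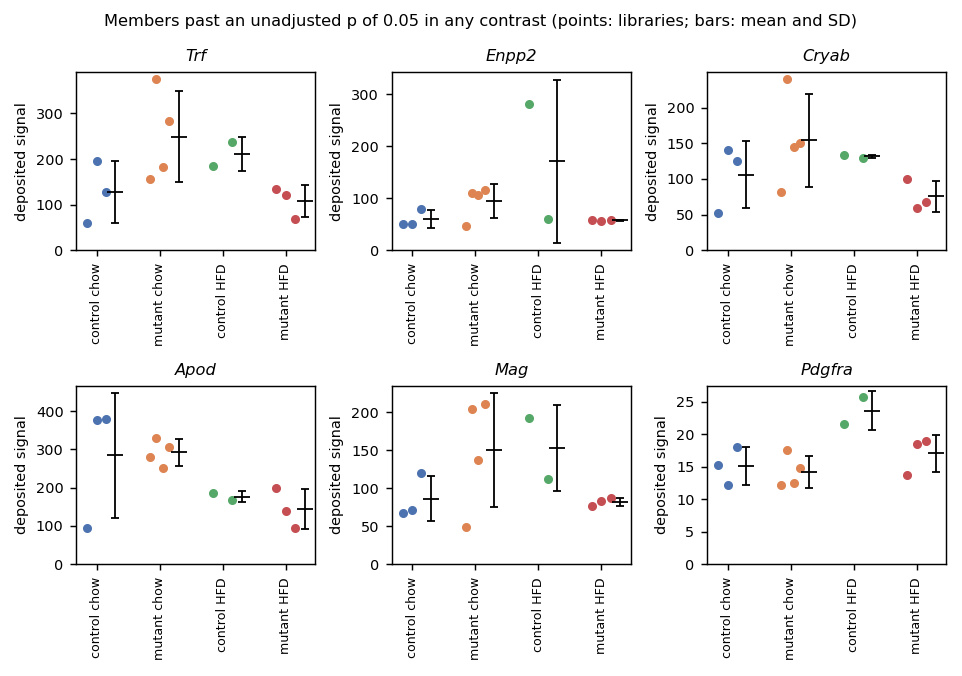
Points are the deposited signal of each library by group, and bars to their right the mean and SD, for the 6 members with an unadjusted p under 0.05 in any contrast; each axis starts at 0. In Trf and Apod all mutant HFD points lie below all mutant chow points, and in Enpp2 one control HFD library, at 281, sets the mean of its group.

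The remaining members gave the following ranges. Car2 spanned 85.1 to 259 and Tspan2 22.6 to 64.1. Bcas1, a gene of newly myelinating cells, spanned 38.2 to 230.0, and its lowest and highest libraries were those of Mbp. Gpr37, a receptor gene of oligodendrocytes, spanned 13.1 to 34.6, Lpar1, which encodes a receptor for the autotaxin product lysophosphatidic acid, 16.3 to 37.9, and Sirt2, the gene for a deacetylase of myelin, 116 to 206. Sirt2 and Plekhb1 varied least of these 12, with residual SDs of 0.25 and 0.33 on the log2 scale, while Bcas1 varied most of all 33 members at 0.79.

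Further genes of the lineage, taken from lists by function that were drawn up with earlier results of these data known, were read in the same fit, and 0 of them passed the adjusted threshold in any of the 5 contrasts by limma. Of 24 other mature oligodendrocyte genes, 21 had a difference above 0 in mutants on chow (median 0.39, 3 at an unadjusted p under 0.05). On HFD in mutants, 23 had a difference below 0 (median -0.43, 4 at an unadjusted p under 0.05). Of all genes, 52.2% were above 0 on chow and 4.34% had such a p. On HFD in mutants these shares were 46.9% and 5.37%. S1pr5, a sphingosine 1-phosphate receptor gene, had a difference of 1.07 ± 0.33 on chow (limma adjusted p = 0.982). Its signals were 2.14, 3.67 and 2.26 in control chow, 3.50, 7.37, 8.15 and 8.64 in mutant chow, 6.90 and 6.60 in control HFD and 5.15, 5.25 and 7.96 in mutant HFD.

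Of 9 other precursor genes, 6 were below 0 on chow (median -0.02), where Sox6 (-1.37 ± 0.53) and Vcan (-0.82 ± 0.35) passed the unadjusted threshold. On HFD in mutants, 7 were above 0 (median 0.12, 0 at an unadjusted p under 0.05). Of all genes, 4.34% passed the unadjusted threshold on chow and 5.37% on HFD in mutants, with 52.2% and 46.9% above 0. The 7 genes of newly formed oligodendrocytes had medians of 0.04 and -0.07 in these contrasts, and the 14 genes of myelin lipid synthesis 0.08 and -0.05. Among 11 other regulators of the lineage the median was 0.21 and -0.07. Hes5, a Notch target gene that restrains differentiation, had the smallest p of all list genes. Its signals were 23.1, 20.1 and 16.9 in control chow, 34.2, 29.6, 71.2 and 36.1 in mutant chow, 31.5 and 37.8 in control HFD and 18.8, 16.1 and 12.9 in mutant HFD. The highest, 71.2, was in the third mutant chow library, which had the most genes at 0. The interaction of Hes5 was -2.07 ± 0.43 (limma adjusted p = 0.999), and no fit without that library is given for it.

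Markers of the other cells in the tissue were read beside the members. Over 7 neuronal genes the median log2 difference was 0.001 on chow and 0.25 on HFD in mutants, with 0 past the unadjusted threshold in either, and over 8 astrocyte genes 0.09 and 0.06, also with 0. The 7 microglia genes had a median of 0.47 on chow, all 7 above 0 with 4 at an unadjusted p under 0.05. Of all genes, 52.2% were above 0 on chow and 4.34% had such a p. On HFD in mutants the microglia median was -0.43, all 7 below 0 with 3 at such a p. There, 46.9% of all genes were above 0 and 5.37% had such a p. Csf1r, the microglial receptor for colony-stimulating factor 1, gave -0.68 ± 0.17 (limma adjusted p = 0.564). The summed microglia signal was 273 to 403 in control chow, 450.1 to 514 in mutant chow, 297 and 365 in control HFD and 299.6 to 359 in mutant HFD. With group means removed, the mean over the microglia list followed the mature myelin mean with r = 0.31, the astrocyte list with 0.52, the fibroblast list with 0.61, the pericyte list with 0.41, the endothelial list with 0.37, the arcuate neuron list with -0.15 and the neuronal list with -0.011. Their part in the results for the members was not tested.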

How the data were processed

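Per the labels and the study's methods, RNA from microdissected ARC was sequenced on an Illumina NovaSeq, and the authors quantified transcripts of the mouse build mm10 by Kallisto (gene mode) and tested genes with Sleuth. Versions, annotation, gene filter and use of strand were not given in the sources used here. The authors deposited 1 signal value per gene and library for 16640 genes and 12 libraries, with column sums that differ, and 0 columns were left unmapped and no pair of libraries was identical. Symbols came from GENCODE M21 (16633 of 16640 genes matched). Of the 33 members, 14 share exonic positions with another annotated gene, 6 with a gene of the table.

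Values were transformed as log2(signal + 1), and 15801 genes with a signal of at least 1 in at least 2 libraries were fitted with limma 3.58.1 (R 4.3.3, mean-variance trend, 1 mean per group, two-sided, Benjamini-Hochberg adjustment over all genes, threshold 0.05). The pseudocount shrinks differences of low genes. Differences are on that log2 scale with SE; signals are mean ± SD. The labels do not say that libraries are separate animals, so p-values measure the spread between these samples. Lists were averaged per library without a test. Members and lists were chosen with earlier results of these data known. Named genes were, besides every member, those with the largest differences among members at an unadjusted p under 0.05, up to 2 genes per further list by p, and the 10 genes outside the members most like the mature mean, and a few genes that these rules name are not reported here. The fit was tested on simulated data. Alternatives were other pseudocounts, filters, scalings, weights, fits of the compared groups, a myelin covariate and leaving out each library. Python 3.11.15 was used for summaries.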

Additional observations from a re-analysis of the deposited data

Results flagged for a closer look

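Outliers were looked for in mutant chow, the one group with 4 libraries, over the 33 members and the means of the 4 lists, which makes 37 sets of values. Of these, 1 passed Dixon's 95% limit for 4 samples, and chance passes about 1 set in 20. Enpp2 was 47.1 in the first mutant chow library and 105 to 117 in the other 3, and the gap took up 0.837 of the range of the group. That library also had the lowest signal of the group in most mature myelin genes.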

How the results depend on the processing

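The number of members past the adjusted threshold was 0 in each of the 5 contrasts and stayed at 0 under all 99 refits of those counts, with the lowest adjusted p at 0.28 (HFD against chow in mutants, array weights). Fits that leave out a library, including each of the 2 control HFD libraries, are given beside the results for the members. The effect of the covariate is given there too. With 1 control HFD library left out the other is assumed to vary like the rest. For the interaction the fit of the compared groups is the fit to all 12 libraries. Of 72 recomputed group levels, 69 moved by less than 1 SD. The precursor mean in control HFD was 3.81 and became 3.69 with a pseudocount of 0.1 and 3.89 with every column rescaled to a common sum, and in mutant HFD it was 3.83 and became 3.73 with a pseudocount of 0.1. The pseudocount by its construction lowers the log2 of low values. Rescaling moved the median of all genes by 0.13 for diet in controls and by under 0.1 in the other 3 contrasts of groups, and the members' median for diet in controls was then 0.40 against 0.12 over all genes. Across the settings that keep all libraries and add no covariate, the members at an unadjusted p under 0.05 numbered 1 to 4 by genotype on chow (all genes 3.35 to 4.63%), 1 to 3 by genotype on HFD (1.93 to 3.28%), 0 to 4 by diet in controls (2.23 to 3.81%), 3 to 13 by diet in mutants (5.04 to 8.78%) and 2 to 5 in the interaction (3.05 to 3.7%). All 226 refits of the 11 single-gene differences kept their direction, and 0 passed the adjusted threshold. No paired analysis was possible because libraries were numbered as deposited, and these numbers tie no library of one group to one of another. Read depth is unknown, so counting error could not be separated from the spread between libraries.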
